A study of Mus musculus with 7 samples.

Results

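The killer cell lectin receptor (Klr) genes were followed through 7 whole mouse spleens by RNA sequencing. Members were all genes of the deposited count table whose symbol begins with Klr, a letter from a to k and a further digit or letter, which gave 37 of 24062 genes. Of these, 21 are Klra genes and 16 belong to the Klrb, Klrc, Klrd, Klre, Klrg, Klri and Klrk groups. The mutant group held 3 enlarged spleens, mutant 1 to 3, with the genotype Vav1-iCre;Brca1F22-24/F22-24. The Vav1-iCre transgene is active in blood cells, where its recombinase can remove exons 22 to 24 of the Brca1 allele. The control group held 4 spleens with the genotype C57BL6, wild type 1 to 4, and are named Brca1+/+ in another label. All mice were 2 to 3 months old, and neither a Cre-only control nor a strain background for the mutants is named in the labels. Cre, the Brca1 allele, the enlargement and any difference in strain therefore cannot be told apart in the comparison.

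Klr genes encode C-type lectin-like receptors on the surface of natural killer (NK) cells and of some T cells. Inhibitory members bind MHC class I or other self ligands and restrain killing through phosphatases, while activating members signal through adaptor proteins. In the mouse nearly the whole family sits in one stretch of chromosome 6, the NK gene complex, where the Klra (Ly49) genes have multiplied and differ in number between strains.

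Brca1, the targeted gene, stood at 67.6, 47.1 and 42.7 CPM in mutant 1 to 3 and at 15.7 to 72.8 CPM in wild type, overlapping levels that sum over the whole gene and so cannot show the loss of 3 exons. Libraries held 26889712 to 63612532 counts. Levels are counts per 1000000 counts (CPM) after TMM scaling, and differences are log2 fold changes, mutant minus wild type, from edgeR's quasi-likelihood test with Benjamini-Hochberg adjustment over 15188 genes. A gene was called at an adjusted p under 0.05. Erythroid markers stood apart in wild type 1 and 2 (Alas2 at 843 and 2150 CPM, against 160.5 and 203 CPM in wild type 3 and 4), and the values of the Klr members were also taken without these 2 spleens. Each library is labelled as a separate spleen, with no word on litters, and the p-values speak of the spread among these 7 spleens.

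Nearly all members lie on chromosome 6 (mm10) between the start of Klrb1a at 128609227 and the end of Klra2 at 131247362. Klrd1 spans chr6:129591811-129598775 on the plus strand, Klrk1 chr6:129610323-129623864, Klra4 chr6:130044017-130067271 and Klra8 chr6:130115226-130129898 on the minus strand, while Klrg1 starts at 122270597 and Klrg2 at 38626660.

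Klr transcripts were low in the mutant spleens. Summed over the 29 genes that RefSeq places at the deposited position on chromosome 6, the family stood at 217, 220, 287 and 318 CPM in wild type 1 to 4 and at 10.7, 3.77 and 2.96 CPM in mutant 1 to 3. The groups were far apart, with the 3 mutants at 4.12%, 1.45% and 1.137% of the wild-type mean. Of the 37 genes 34 were tested, and all 34 were called lower and 0 higher, where 28.9% of all genes tested were called lower and 57.4% in either direction. Each of the 34 had all mutant spleens below all wild-type spleens, a pattern seen mutant-below for 32.6% of all genes tested. In whole tissue, fewer cells of a type and less RNA per cell cannot be told apart.

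The count of 34 describes these libraries and cannot serve as a test of the family. Genes entered the test with at least 0.280 CPM in 3 spleens, a level that all 34 reached in each wild-type spleen. In the mutants it was reached in all 3 spleens by Klrb1f alone, and in no mutant spleen by 26 of the 34 genes, so most could enter only because they were high in wild type. With no filter on low counts all 37 were tested and 35 were called lower (22.9% of 19607 genes were). The exceptions there were Klrg2 and Klrb1-ps1. Without wild type 1 and 2 all 34 were again called lower.

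**Figure D1:**
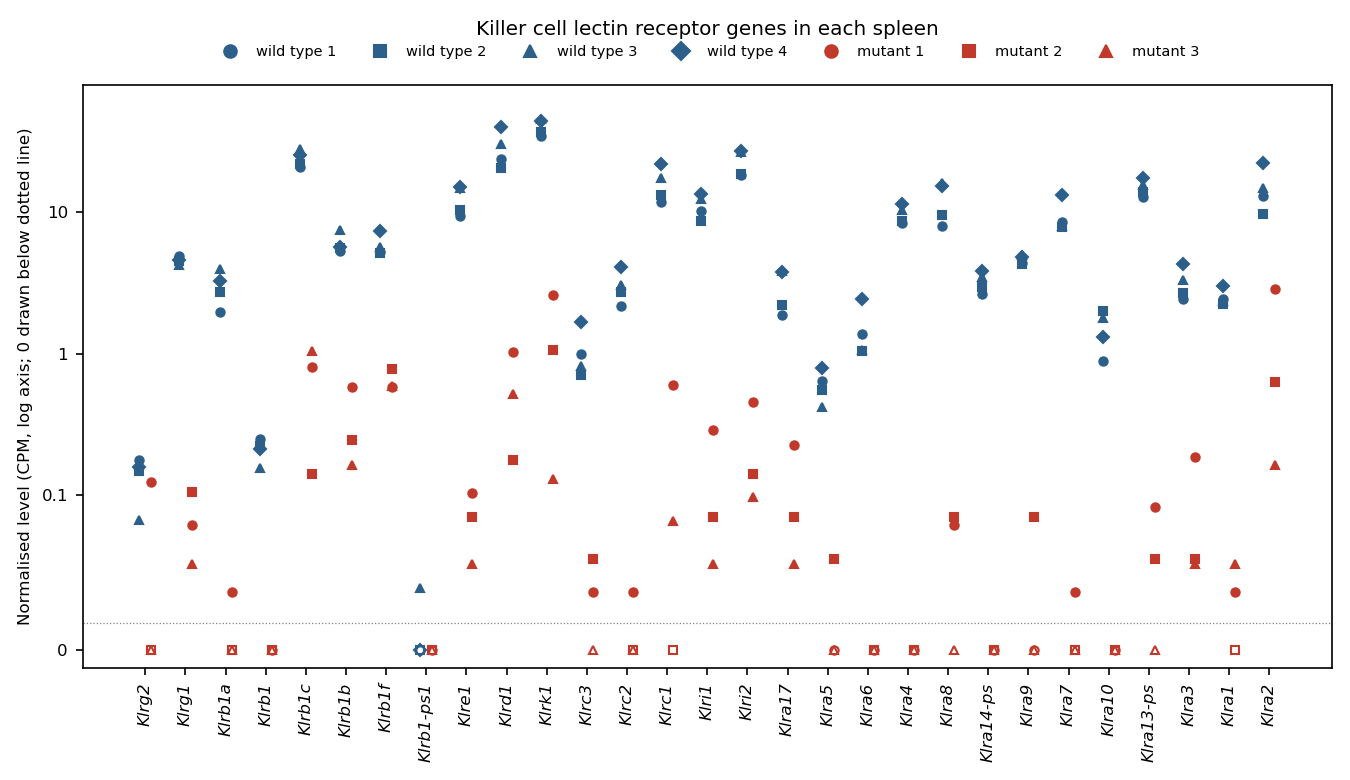
Normalised level in CPM (log axis) of the 29 Klr genes placed by RefSeq, in order along chromosome 6, with 1 point per spleen (blue, wild type 1 to 4; red, mutant 1 to 3; open symbols under the dotted line, 0 counts). Mutant points lie below the wild-type points for every gene shown except Klrg2, where mutant 1 at 0.124 CPM lies within the wild-type range, and Klrb1-ps1, which had 1 count in all spleens together.

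The sizes were large beside the whole table. Among the 34 tested genes 29 had a log2 fold change below -5 and were called, which was true of 1.22% of all genes. Of the 26 tested genes that RefSeq places, 21 were so. Most of the 34 could enter the test only through wild type, so these counts describe sizes and are no test. The median over the 34 was -7.73, and the median over all genes tested was -0.02. That family median leans on rows that may share reads and on genes with no mutant count, whose fitted value depends on the method. It was -6.68 with the 8 tested genes of 0 mutant counts set at a bound of 3 counts over the mutant group, and -6.38 over the 26 tested genes that RefSeq places. The smallest decrease was that of Klrb1f (-3.18) and the largest adjusted p that of Klra2 (0.0089, edgeR).

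**Figure D2:**
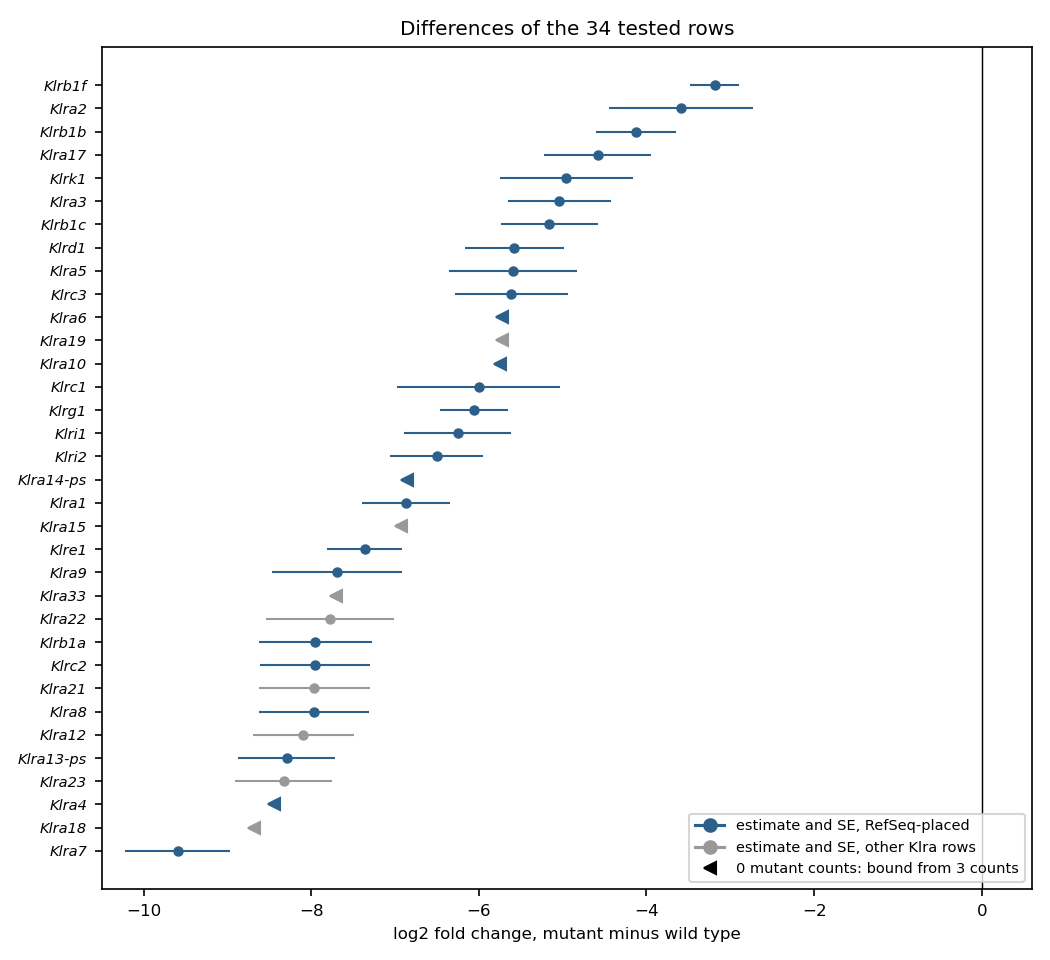
Log2 fold change (mutant minus wild type) of the 34 tested Klr rows, with SE bars, blue for genes placed by RefSeq and grey for the other Klra rows; triangles give the bound from 3 counts for the 8 rows with 0 mutant counts. All values lie below 0, from -3.18 for Klrb1f, and the Klra rows hold most of the lower end.

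The Klra rows are not 21 separate measurements. Of these symbols 13 are placed by RefSeq (GRCm38.p6) where the table has them, and the other 8 (Klra12, Klra15, Klra18, Klra19, Klra21, Klra22, Klra23 and Klra33) are not. Klra6 and Klra19 cover the same place and had identical counts in all 7 spleens, 300 in total. Klra21 and Klra8 differed by at most 3 counts in a spleen, and Klra13-ps and Klra23 by at most 31 of 2781 and 2848. The 21 rows summed to 147 ± 32.3 CPM (SD, n = 4) in wild type and the 13 placed genes to 81.3 ± 17.5 CPM. A sum over all rows may count some reads more than once, which was not tested. Reads can also be shared between true neighbours. In GENCODE M21 transcripts, 66.9% of the 50-base stretches of Klra8, 68.5% of those of Klra9 and 60.2% of those of Klra10 occur in no other gene, with Klra14-ps, Klra3 and Klra9 as their closest sharers. Klra2, Klra17, Klrk1, Klrd1, Klrg1 and Klrb1f have 100% unique stretches. The sources used here do not give how the counting step handled shared reads.

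The activating Ly49 receptors come first. Klra8 encodes Ly49H, the receptor that recognises mouse cytomegalovirus-infected cells, and stood at 8.02, 9.55, 16.04 and 15.3 CPM in wild type 1 to 4, and mutant 1, 2 and 3 read 0.0619, 0.0705 and 0 CPM. The mutant values are 3, 2 and 0 counts, and the pooled ratio of wild type to mutant was 289 (95% exact interval 124 to 891, covering counting error only). Klra4 encodes Ly49D, the other classical activating member of C57BL/6 mice. It stood at 8.38, 8.66, 10.3 and 11.4 CPM in wild type and had 0 counts in each mutant, so it was at least 347-fold lower, taking 3 counts for the whole mutant group (0.0279 CPM) as the limit. For both genes every wild-type spleen exceeded 8 CPM while no mutant reached 0.1 CPM.

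The letters just before the start sites of these genes are shown because part of this stretch is common to many Klra genes. RefSeq gives an upstream sequence for 23 members, 11 of them Klra genes. Each line below is the 150 bases before the start site, 5′ to 3′, from RefSeq on GRCm38.p6, minus strand of chromosome 6. Klra4 lies at chr6:130067272-130067421, Klra8 at chr6:130129899-130130048, Klra2 at chr6:131247363-131247512 and Klrk1 at chr6:129623865-129624014. Capitals mark GCAATTTCCTC, the 11 letters found in the most Klra windows of 250 bases, and TGTGGT, the core bound by RUNX factors, each searched on both strands.
Klra4: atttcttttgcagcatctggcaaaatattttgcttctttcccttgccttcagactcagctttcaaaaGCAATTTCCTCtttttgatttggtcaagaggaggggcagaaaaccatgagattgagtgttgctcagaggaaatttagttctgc
Klra8: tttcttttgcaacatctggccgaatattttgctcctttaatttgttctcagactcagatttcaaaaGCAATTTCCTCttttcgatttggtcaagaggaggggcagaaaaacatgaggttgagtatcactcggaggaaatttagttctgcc
Klra2: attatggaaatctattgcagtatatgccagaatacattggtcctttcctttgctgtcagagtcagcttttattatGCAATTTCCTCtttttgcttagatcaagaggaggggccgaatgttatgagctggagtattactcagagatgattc
Klrk1: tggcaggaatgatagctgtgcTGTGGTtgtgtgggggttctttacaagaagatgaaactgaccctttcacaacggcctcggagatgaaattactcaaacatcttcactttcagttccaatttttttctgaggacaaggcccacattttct
The 11 letters occur in 8 of the 11 Klra windows (Klra2, Klra3, Klra4, Klra5, Klra6, Klra8, Klra9 and Klra17), in 0 of the other 12 members and in 0.056% of 27025 promoters of the same length. They were picked because they recur in these windows, so the count is a description. Klra4 and Klra8 were 84.4% identical over 250 bases, the closest pair, and Klra3 and Klra9 were 82.4% identical. TGTGGT occurs before 7 members (Klrb1a, Klrb1c, Klrc1, Klrc2, Klrc3, Klrk1 and Klra1) and in 14.2% of all promoters. The T-box core GGTGTGA occurs before 0 of the 23 members and in 3.31% of all promoters, which says only that these letters are not in this window. The 8 genes with the letters, in the order listed above, had 161, 11, 0, 1, 0, 5, 2 and 14 mutant counts. Klra1, Klra7 and Klra10, whose windows lack an exact match, had 2, 1 and 0 mutant counts. The Klra7 window holds the letters with 1 base changed. A part of these letters in the levels was not tested.

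The inhibitory Ly49 receptors bind classical MHC class I. Klra7 encodes Ly49G and stood at 8.55, 7.81, 7.99 and 13.2 CPM in wild type 1 to 4, and mutant 1, 2 and 3 read 0.0206, 0 and 0 CPM, which is 1 count in mutant 1. Its pooled ratio was 1106 (95% exact interval 198 to 43713). Klra9, which encodes Ly49I, stood at 4.38, 4.33, 5.02 and 4.79 CPM in wild type, and mutant 1, 2 and 3 read 0, 0.0705 and 0 CPM, a ratio of 254 (70.0 to 2100). With a spread of 7.17% of its mean, Klra9 was one of the steadiest members across the wild-type spleens, whereas Klra6 varied by 44.6%.

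Klra1 and Klra3, for Ly49A and Ly49C, are the inhibitory receptors with the best known class I ligands. Klra1 stood at 2.44, 2.26, 2.37 and 3.01 CPM in wild type, and mutant 1, 2 and 3 read 0.0206, 0 and 0.0326 CPM, a ratio of 142 (39.1 to 1175). Klra3 stood at 2.44, 2.70, 3.30 and 4.32 CPM in wild type, and mutant 1, 2 and 3 read 0.186, 0.0352 and 0.0326 CPM, with 9, 1 and 1 counts. Its log2 fold change was -5.04 (SE 0.61, adjusted p = 5.41e-04, edgeR) and was -6.36 without mutant 1, which held most of what was left.

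The Klra genes of lower level had few or no mutant counts. Klra5 (Ly49E) stood at 0.420 to 0.792 CPM in wild type and had 1 mutant count, in mutant 2. Klra6 (Ly49F) at 1.04 to 2.44 CPM and Klra10 (Ly49J) at 0.884 to 2.00 CPM had 0 mutant counts, so Klra6 was at least 53.1-fold lower and Klra10 at least 53.6-fold lower. The transcribed pseudogenes also had few or no mutant counts. Klra14-ps stood at 2.65 to 3.87 CPM in wild type with 0 mutant counts (at least 116-fold lower). Klra13-ps was not of lower level, at 12.7 to 17.6 CPM in wild type, and had 5 mutant counts. Klra13-ps shares 13.7% of its 50-base stretches with Klra7.

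Of the 8 Klra rows not placed by RefSeq, Klra15, Klra18, Klra19 and Klra33 had 0 mutant counts, Klra22 had 1, and Klra12, Klra21 and Klra23 had 5 each. Their wild-type means ran from 1.48 CPM for Klra19 to 15.4 CPM for Klra23. Their spans overlap 3 to 17 other Klra rows, so their values may share reads with the genes they overlie, which was not tested.

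Klra2 and Klra17 stand at the ends of the Klra stretch and differ from the rest in where they are known to be made. Klra2 encodes Ly49B, a receptor of myeloid cells. It stood at 12.9, 9.77, 14.8 and 22.4 CPM in wild type 1 to 4 and at 2.85, 0.634 and 0.163 CPM in mutant 1 to 3. The groups did not overlap, but mutant 1 still reached 19.0% of the wild-type mean, against 4.24% and 1.087% in mutant 2 and 3. The log2 fold change was -3.59 (SE 0.86, adjusted p = 0.0089, edgeR), and -5.14 without mutant 1.

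Klra17 encodes Ly49Q, which marks plasmacytoid dendritic cells and some myeloid cells. It stood at 1.87, 2.22, 3.83 and 3.79 CPM in wild type, and mutant 1, 2 and 3 read 0.227, 0.0705 and 0.0326 CPM, with 11, 2 and 1 counts. Its log2 fold change was -4.58 (SE 0.64, adjusted p = 8.86e-04, edgeR), and -5.68 without mutant 1. Mutant 1 was again the highest mutant and mutant 3 the lowest.

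Markers of myeloid cells were also measured. Of the 6 monocyte and macrophage markers in the table all 6 were called lower (28.9% of all genes were), with summed levels of 1722 to 2261 CPM in wild type and 507, 373 and 126 CPM in mutant 1 to 3. Csf1r, the receptor for the macrophage growth factor, ranged from 522 to 604 CPM in wild type and read 212, 85.0 and 18.0 CPM in mutant 1, 2 and 3. Lyz2, the lysozyme of these cells, was highest in mutant 2, at 183, 208 and 71.4 CPM, while the other 5 markers were highest in mutant 1. Of the 7 plasmacytoid dendritic cell markers 4 were called lower and 1, Ccr9, higher (28.9% and 28.5% of all genes), with summed levels of 1218 to 1618 CPM in wild type and 526 to 560 CPM in the mutants. Much of the wild-type sum came from Ly6d (mean 412 CPM) and Spib (mean 411 CPM). Bst2, named after its values were seen, and Ly6d were not called (0.20 and -0.66). Siglech, a surface lectin of these cells, was also named after its values were seen and had the largest decrease of the 7. It ranged from 24.4 to 30.0 CPM in wild type and read 0.433, 0.458 and 0.0651 CPM in mutant 1, 2 and 3. The part of these cell types in the levels of Klra2 and Klra17 was not tested.

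Without Klra2 and Klra17, the 11 other placed Klra genes summed to 52.5, 55.9, 67.4 and 77.9 CPM in wild type 1 to 4 and to 0.371, 0.247 and 0.0651 CPM in mutant 1 to 3. The mutants thus held 0.585%, 0.389% and 0.103% of the wild-type mean.

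Klrk1 encodes NKG2D, the activating receptor for stress-induced ligands. It stood at 34.6, 36.95, 45.6 and 44.1 CPM in wild type 1 to 4, the highest CPM of any member, and at 2.60, 1.06 and 0.130 CPM in mutant 1 to 3. The groups did not overlap, and the mutants lay at 6.45%, 2.62% and 0.323% of the wild-type mean. The log2 fold change was -4.96 (SE 0.79, adjusted p = 0.00155, edgeR), and -6.00 without mutant 1.

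Klrd1 encodes CD94, the partner chain of the NKG2 receptors that bind Qa-1. It stood at 23.8, 20.6, 30.4 and 39.9 CPM in wild type, and mutant 1, 2 and 3 read 1.03, 0.176 and 0.521 CPM. Mutant 2 was the lowest here, unlike for Klrk1, and the log2 fold change was -5.58 (SE 0.59, adjusted p = 3.65e-04, edgeR), and -6.26 without mutant 1. Klrc1 encodes NKG2A, the inhibitory partner of CD94, and stood at 11.8, 13.1, 17.4 and 21.8 CPM in wild type, and mutant 1, 2 and 3 read 0.598, 0 and 0.0651 CPM. Its 31 mutant counts were split 29, 0 and 2. Klrc1 had a log2 fold change of -6.00 (adjusted p = 0.00163, edgeR; SE 0.97), which became -8.69 without mutant 1.

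The activating Klrc genes were lower in level. Klrc2, for NKG2C, stood at 2.16, 2.74, 3.08 and 4.07 CPM in wild type and had 1 mutant count, a ratio of 355 (63.5 to 14056). Klrc3, for NKG2E, stood at 0.990, 0.703, 0.819 and 1.66 CPM in wild type and had 2 mutant counts, a ratio of 64.1 (17.5 to 533). The 3 Klrc genes resemble each other: 61.4% of the 50-base stretches of Klrc1 and 63.7% of those of Klrc3 are found in no other gene, and Klrc2 is the closest sharer of both, so their separate values are uncertain.

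Klre1, Klri1 and Klri2 form pairs, with the Klre1 product joining either the inhibitory Klri1 or the activating Klri2 product. Klre1 stood at 9.37, 10.4, 14.7 and 15.0 CPM in wild type, and mutant 1, 2 and 3 read 0.103, 0.0705 and 0.0326 CPM. This gave a log2 fold change of -7.36 by edgeR (adjusted p = 1.45e-04, SE 0.45). Klri1 stood at 10.2, 8.74, 12.4 and 13.4 CPM in wild type, and mutant 1, 2 and 3 read 0.289, 0.0705 and 0.0326 CPM. Klri2 stood at 18.2, 18.7, 26.9 and 27.0 CPM in wild type, and mutant 1, 2 and 3 read 0.454, 0.141 and 0.0977 CPM. All 3 genes had the same order of mutants, 1 over 2 over 3, and Klri1 and Klri2 had log2 fold changes of -6.25 and -6.51, which were -7.61 and -7.46 without mutant 1.

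Klrg1 encodes an inhibitory receptor for cadherins that marks mature NK cells and some effector T cells. It was among the steadiest members in wild type, at 4.91, 4.55, 4.204 and 4.61 CPM, and stood at 0.0619, 0.106 and 0.0326 CPM in the mutants. Its mutant counts were 3, 3 and 1, and its log2 fold change was -6.06 (SE 0.40, adjusted p = 1.45e-04, edgeR). Klrg2, a little studied relative that lies outside the NK gene complex, was barely detected: wild type 1 to 4 had 5, 4, 3 and 12 counts, and mutant 1 to 3 had 6, 0 and 0. Its groups overlapped, and with no filter its log2 fold change was -1.39 (SE 0.98, adjusted p = 0.279, edgeR).

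The Klrb genes encode the NKR-P1 receptors, whose ligands are the Clec2 proteins made next door in the NK gene complex. Klrb1c encodes the activating NKR-P1C, the antigen used to identify NK cells in C57BL/6 mice. It stood at 20.9, 21.9, 28.2 and 25.3 CPM in wild type, and mutant 1, 2 and 3 read 0.804, 0.141 and 1.04 CPM, with 39, 4 and 32 counts. Unlike most members it was highest in mutant 3, and its log2 fold change was -5.16 (SE 0.58, adjusted p = 4.32e-04, edgeR). Klrb1a, for the activating NKR-P1A, stood at 1.98, 2.74, 3.98 and 3.29 CPM in wild type and had 1 mutant count, a ratio of 341 (61.0 to 13502).

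Klrb1b encodes the inhibitory NKR-P1B, which binds the Clec2d product. It stood at 5.30, 5.55, 7.50 and 5.64 CPM in wild type, and mutant 1, 2 and 3 read 0.577, 0.247 and 0.163 CPM. This gave a log2 fold change of -4.13 by edgeR (adjusted p = 4.62e-04, SE 0.48), and -4.77 without mutant 1. Klrb1f, for NKR-P1F, stood at 5.23, 5.18, 5.64 and 7.42 CPM in wild type, and mutant 1, 2 and 3 read 0.577, 0.775 and 0.586 CPM. It kept 9.84%, 13.2% and 9.99% of the wild-type mean in mutant 1 to 3, and its log2 fold change was -3.18 (SE 0.29, adjusted p = 2.45e-04, edgeR). Klrb1, for NKR-P1G, had 0 mutant counts and 0.155 to 0.247 CPM in wild type (at least 7.49-fold lower, untested after the filter), and Klrb1-ps1 had 1 count in all 7 spleens.

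Set per length, the order of levels in wild type changed. Per kilobase of exon in GENCODE M21, the highest means were those of Klrd1 at 22.4 ± 6.65, Klra13-ps at 14.4 ± 2.01, Klri1 at 13.4 ± 2.51 and Klra8 at 10.4 ± 3.42 CPM per kilobase (SD, n = 4). Klrd1 stood above the next gene by more than its SD, while Klra13-ps and Klri1 lay within an SD of each other. Klrb1c at 8.13 ± 1.12, Klrc1 at 8.08 ± 2.27 and Klra2 at 7.89 ± 2.82 followed and could not be ordered. Klrk1, first by CPM, stood at 5.61 ± 0.743 CPM per kilobase. Its exons cover 7183 bases in that annotation and those of Klrd1 cover 1281. These lengths may differ from those of the exons that were counted, so the order per kilobase depends on the annotation. Klrg2 stood lowest among the coding genes at 0.0402 ± 0.0143 CPM per kilobase.

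The make-up of the family signal was steady in wild type and different in each mutant. Of the summed CPM of the 29 placed genes, the 12 Klra genes other than Klra2 held 24.8% to 26.4% in the 4 wild-type spleens and 5.58%, 8.41% and 3.30% in mutant 1 to 3 (exact 95% intervals 3.77 to 7.91, 3.92 to 15.4 and 0.685 to 9.33). Klrb1f held 1.97% to 2.41% in wild type and 5.38%, 20.6% and 19.8% in mutant 1, 2 and 3. These shares did not overlap between the groups. They rest on 520, 107 and 91 family counts in the mutants against 5949 to 24059 in wild type. Klra2 was set apart here, and of the Klra genes it kept the most of its level. With Klra2 added, the Klra share of mutant 1 lay within the wild-type range, and those of mutant 2 and 3 stayed below it. The gap for the Klra genes thus depends on this grouping.

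A few genes held most of the remainder. Klra2 held 26.5% of the signal in mutant 1 and 16.8% in mutant 2, against 4.44% to 7.04% in wild type. Klrk1 held 24.2% and 28.0% there, against 13.9% to 16.8% in wild type. In mutant 3 these 2 genes held 5.49% and 4.40%, while Klrb1c held 35.2% (exact 95% interval 25.4 to 45.9), Klrb1f 19.8% as given above and Klrd1 17.6% (10.4 to 27.0).

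**Figure D3:**
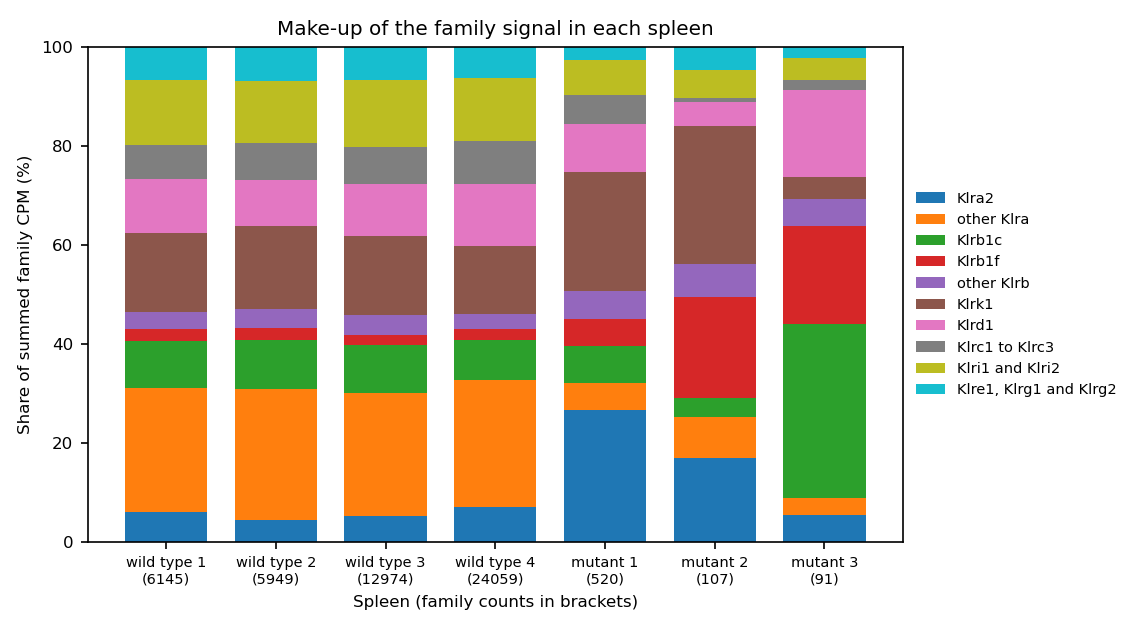
Share (%) of the summed CPM of the 29 placed Klr genes held by each gene or gene group, 1 bar per spleen, with the number of family counts in brackets. The 4 wild-type bars are alike, while Klra2 and Klrk1 lead in mutant 1, Klrk1 and Klrb1f in mutant 2, and Klrb1c leads in mutant 3 at 35.2%.

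NK markers outside the family are the nearest comparison. Of 13 such genes 11 were called lower and 1 higher (28.9% and 28.5% of all genes), with a median log2 fold change of -2.93 against -6.38 for the 26 tested placed members (-6.03 with members of 0 mutant counts at their bound). Ncr1, the NK-restricted receptor NKp46, named after its values were seen, stood at 15.7 to 18.7 CPM in wild type, and mutant 1, 2 and 3 read 0.206, 0.106 and 0 CPM, 0.597% of the wild-type mean. Ccl5, a chemokine of NK and effector T cells, fell from 99.1 ± 14.0 to 1.34 ± 1.089 CPM (SD, n = 4 and 3), and Nkg7, a cytotoxic granule protein, from 40.7 ± 5.30 to 2.54 ± 2.32 CPM. Il2rb, the receptor chain for interleukins 2 and 15, kept 27.7% of its level.

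Gzma, a granule protease, went against the list: it rose from 55.1 ± 4.92 to 373 ± 141 CPM (log2 fold change 2.76). Through Gzma the summed level of the list, 445 to 534 CPM in wild type, was 304 to 560 CPM in the mutants. Prf1, the pore-forming perforin, named after its values were seen, ranged from 18.9 to 31.5 CPM in wild type, read 1.20, 1.16 and 14.3 CPM in mutant 1, 2 and 3 and was not called (adjusted p = 0.0758, edgeR). No member of the receptor family rose beside Gzma.

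Klr receptors signal through partners that many blood cells share, and these did not move as one. Of 12 adaptors and kinases 6 were called lower and 3 higher, where 28.9% and 28.5% of all genes were. Those named by level included Syk, the kinase used by activating receptors, which fell from 742 ± 167 to 69.4 ± 4.60 CPM, and Lcp2 and Vav1, which were not called (0.06 and -0.26). The 3 that rose were Lat, Zap70 and Cd247 (2.28, 1.93 and 1.86), which also serve the T cell receptor. Tyrobp and Hcst, the adaptors DAP12 and DAP10 of the activating receptors, named after their values were seen, fell to 19.5% and 29.6% of the wild-type mean. Of the 3 phosphatases used by inhibitory receptors, Inpp5d (-1.63) and Ptpn6 (-0.73) fell, and Ptpn11 was not called (0.09).

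Ligands of the receptors were also measured, beside a share of 28.9% of all genes tested that were called lower. All 4 MHC class I genes on the list fell, with log2 fold changes of -3.64 for H2-K1, -3.00 for H2-D1, -2.70 for H2-T23, the Qa-1 ligand of CD94 and NKG2A, and -1.17 for B2m. H2-K1 stood at 1653 to 1856 CPM in wild type against 229, 133 and 59.3 CPM in mutant 1 to 3. All 3 tested Clec2 genes fell, with log2 fold changes of -3.25 for Clec2d, -2.72 for Clec2g and -0.69 for Clec2i (adjusted p = 0.048, edgeR). Clec2e, Clec2f and Clec2h, named after their values were seen, were below the filter. Their means were 0.0186, 1.56 and 0.219 CPM in the mutants against 0.0556, 0.145 and 0.180 CPM in wild type. Of the 221 mutant counts of Clec2f, 213 were in mutant 1.

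NKG2D binds relatives of MHC class I that stressed cells make. Of 3 tested, 0 were called by edgeR: Ulbp1 at 3.30 to 5.004 CPM in wild type and 4.23, 9.16 and 5.18 CPM in the mutants (0.49, adjusted p = 0.231), Raet1a (-1.77, adjusted p = 0.0988) and H60b (-0.77, adjusted p = 0.38). The 5 other NKG2D ligand genes in the table were below the filter. Among them Raet1b and Raet1d, named after their values were seen, had counts close to those of Raet1a in each spleen. Whether these genes share reads was not tested. Of all genes tested, 57.4% were called in either direction. Of the 3 cadherins bound by KLRG1, Cdh2 (-2.60) and Cdh4 (-1.03) fell, and Cdh1 stood at 0.577, 0.352 and 13.6 CPM in the mutants against 2.44 to 4.30 CPM in wild type and was not called (0.44).

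Other lectin receptors of the NK gene complex, which many other blood cells make, were mostly lower. Of 8 such genes 7 were called lower (28.9% of all genes were), with a median log2 fold change of -2.14, and the largest decrease was that of Clec9a, a receptor of dendritic cells (-4.15, SE 0.73). Cd69, an activation marker of lymphocytes, fell by 3.38. The difference between this list and the family was not tested.

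NK development factors were called about as often as other genes: of 12 genes 5 were called lower and 2 higher, and 57.4% of all genes were called. Irf2 fell by 1.36, Stat5b rose by 0.41 and Tox, a factor of NK cells and thymocytes, rose by 2.09, while Ets1 (-0.26) and Ikzf3 (0.06) were not called. The others called lower, named after their values were seen, were Il15 (-3.08), Zeb2 (-1.70), Id2 (-1.33) and Il15ra (-1.17).

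Markers of other blood cells, among them T cells that can carry Klr receptors, were called in both directions. Of all genes tested, 28.9% were called lower and 28.5% higher. All 5 CD8 T cell markers rose, with summed levels of 361 to 486 CPM in wild type and 988, 1469 and 1639 CPM in mutant 1 to 3, and all 6 immature T cell markers rose, from 29.5 to 39.1 CPM to 772, 1921 and 1157 CPM. Of 5 NKT and innate-like T cell markers 2 rose (Slamf6 and Sh2d1a) and 2 fell (Cd1d1 and Cxcr6). All 5 B cell markers fell, to between 0.648% and 5.11% of the wild-type mean by sum. Erythroid markers, of which 0 of 5 were called, summed to 2014, 4318, 395 and 498 CPM in wild type 1 to 4. In mutant 1 to 3 these markers summed to 4981, 1028 and 1340 CPM. The part of any of these cells in the levels of the family was not tested.

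**Figure D4:**
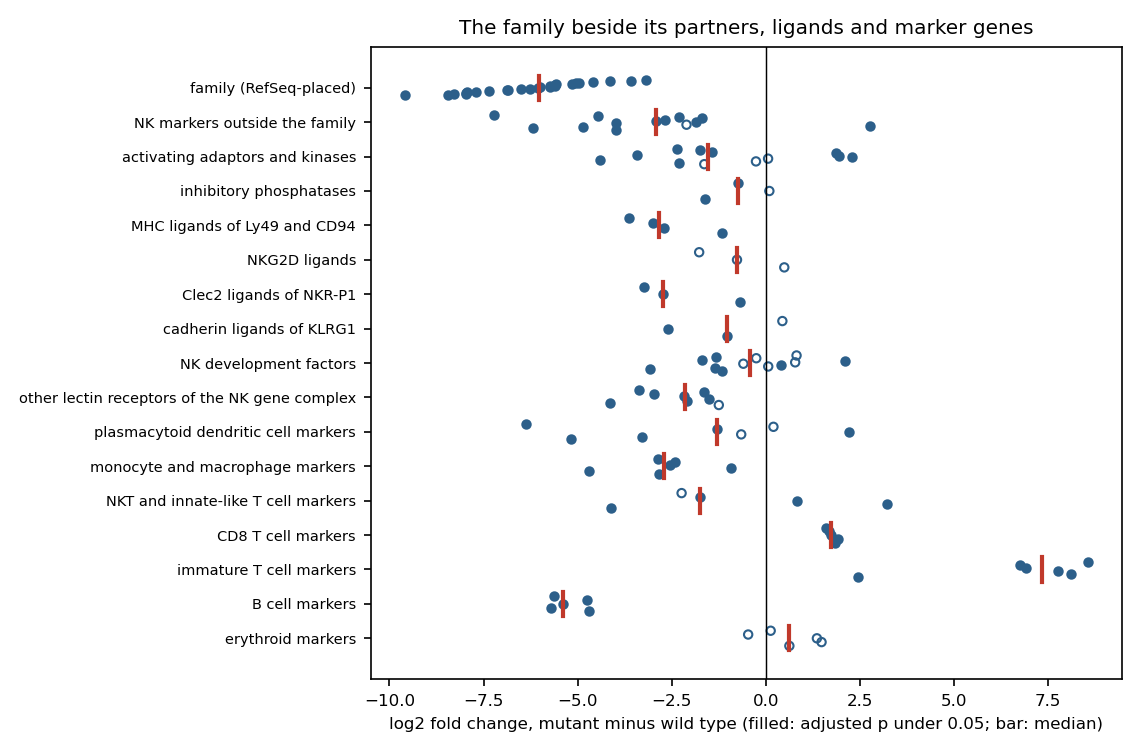
Log2 fold change (mutant minus wild type) of each tested RefSeq-placed gene in the family, with genes of 0 mutant counts at their bound, and in the lists of NK markers, signalling partners, ligands, factors and cell markers (filled, adjusted p under 0.05; open, not called; red bar, median). The family has the lowest median, -6.03, NK markers outside it have a median of -2.93 with Gzma at 2.76, and the CD8 and immature T cell markers lie above 0.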

How the data were processed

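Total RNA was extracted from whole spleens with Trizol, per the labels' protocols. The build is mm10 and the tools are edgeR, featureCounts (Subread 1.4.6), TopHat2 2.0.12 and bcl2fastq 2.17.1.14, per the submitters' processing notes. How they were set, and whether strand was used, is not given in the sources used here. Only the deposited raw counts, 1 per gene and spleen, were analysed. The deposited table of the same genes in another unit was not used here.

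The test was edgeR 4.0.16 (R 4.3.3), quasi-likelihood, on all 7 spleens with the group as sole term, after TMM scaling and the filterByExpr filter. It was tested on simulated data. Standard errors are the log2 fold change over the root of F. Ratios of few counts have 95% exact binomial intervals (scipy 1.17.1). Floors of 3 counts and these intervals cover counting error only. Alternatives were other scalings and filters, DESeq2 1.42.0, limma-voom (limma 3.58.1), the replicate number as a block and each spleen left out.

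Every member is named. From each other list the 4 tested genes with the highest mean CPM and any called against the majority could be named, and genes named after their values were seen are marked. Members and lists were chosen with earlier results of these data known. RefSeq placed 29 members where the table has them, and 29 matched GENCODE M21 transcripts. Deposited starts count from 0 (11832 genes matched a GENCODE start after adding 1, and 857 before) and are given from 1. A comparison of protein sequences was planned and is not reported here. The list of innate lymphoid markers is not reported here.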

Additional observations from a re-analysis of the deposited data

Results flagged for a closer look

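Of 50 sets of 4 wild-type values examined, from members and from overlapping sums of them, 3 held a spleen far from the other 3, where chance alone gives about 5%. Klra7 read 13.2 CPM in wild type 4, where the other wild-type spleens lay between 7.81 and 8.55 CPM. Klrb1b read 7.50 CPM in wild type 3 against 5.30 to 5.64 CPM in the others. The pseudogene Klrb1-ps1 read 0.0221 CPM in wild type 3, which is 1 count, and at 0 in the others.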

How the results depend on the processing

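The 34 tested members were called lower under every alternative that could test them, 508 results over 34 members and 15 alternatives, with 0 changes of direction or call. The number of members called lower was 32 with at least 1 CPM in at least 3 spleens, which tests fewer genes, 35 with no filter and with DESeq2, and 26 over RefSeq-placed genes. The median log2 fold change, -7.73, was -7.36 with no filter, -7.37 with DESeq2, -6.91 with limma-voom, -6.38 over RefSeq-placed genes and -6.68 with genes of 0 mutant counts at their bound. Leaving out 1 spleen gave -8.02 (without mutant 1) to -7.40. The summed Klra level in wild type, 147 CPM over 21 rows, was 81.3 CPM over the 13 placed genes, which may still share reads. In the mutants it was 1.69 CPM, and 0.735 CPM without mutant 1. Leaving out mutant 1 moved the fold of 18 members by over 1.5 times, among them Klrk1 (-6.00), Klrc1 (-8.69), Klra2 (-5.14), and Klra7, Klrb1a and Klrc2 with 1 mutant count each (-11.51, -9.86 and -9.87). The same held for Klra5 and Klra9 without mutant 2 (-7.70 and -10.64), Klra22 without mutant 3 (-9.86), and Klra6 and Klra19 without wild type 4 (-8.34 each). With the replicate block, 6090 genes were called in place of 8724, the member count stayed at 34 and the median was -7.63. Same-numbered spleens did not deviate together (correlations 0.0421, -0.186 and 0.101), but so few pairs cannot settle whether the numbers pair the spleens. RefSeq placement, the bound and the fit without wild type 1 and 2 were added after seeing the data. Few counts limit the precision of the mutant values: 16 tested members had 3 or fewer counts over the mutant group.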
